A study of Drosophila melanogaster with 82 samples.

Results

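The transcripts described here are 200 of the 16637 measured on the array, all with bright probes on the array and all with small differences between a rich and a restricted food in each of 7 tissues. They were chosen from the measured values. The 25% of transcripts with the highest mean log2 intensity over all 82 arrays (4159 transcripts) were ranked by the largest absolute change between the foods in any of the 7 tissues, and the 200 transcripts with the smallest such change were taken. Their small diet changes and high levels were therefore fixed by the choice. They are described, together with how many of the changes passed the test in the fit over all transcripts, and no finding is drawn from these counts. How they differed between tissues was not used by the choice and was tested.

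The study asked how the messages carried by ribosomes respond to nutrients in single tissues of adult female Drosophila melanogaster. Flies raised on stock food were moved 2 to 3 days after eclosion to AL food, with 5% yeast extract, or DR food, with 0.5%, and were collected after 10 days on that food, at an age of 13 days. In every line a GAL4 driver, carried as 1 copy, expressed UAS-RpL13A-His6FLAG, an epitope-tagged protein of the large ribosomal subunit, and tagged ribosomes were pulled out of whole-fly homogenate with FLAG beads. All 14 groups carry the tag, the AL groups included. The driver was S106-GS-GAL4 for the fat body, NGT-GAL4 for the germ line, MYOIA-GAL4 for the gut, HAND4.2-GAL4 for the heart, MHC-GAL4 for muscle, C155-GAL4 for neurons and C42-GAL4 for the Malpighian tubule, the organ of urine formation. A tissue here therefore means the cells in which 1 driver is active, in 1 line each, and the driver and the tissue cannot be told apart. Each group of tissue and food had 6 pools, except heart AL and neuron AL with 5, and a pool held about 100 flies, or 200 for neurons. With pooled flies, fewer cells of a type and less message per cell cannot be told apart.

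Messages that many cell types translate at high and even levels are often called housekeeping messages, and those of ribosomal proteins and of the basic metabolism are textbook examples. Restricted yeast is a widely used form of dietary restriction in flies, and it changes nutrient signalling and egg production. A fluorescence array has a highest readable brightness, so that a probe close to that brightness shows a smaller difference than the RNA itself may have. The files give transcript identifiers, and the gene table used here paired none of the 200 members with a gene (16 of all 16637 transcripts were paired with 1 gene). The members are therefore named by identifier, no role is given to any of them, and whether they are housekeeping messages could not be examined. The markers of the 7 tissues could not be looked up either, so the tissue labels were not checked against them.

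All 200 members had 8 probes each, 1600 in all. Levels are mean log2 intensities of those 8 probes, and since probes differ in brightness, the levels of different transcripts are not compared as amounts of message. The brightest probe value of all arrays was 15.96 on the log2 scale. The sorted values of the arrays of a tissue differed by at most 0.04 (log2), while between tissues they differed by up to 2.67, so that comparisons between the foods within a tissue use the deposited values and comparisons between tissues use values quantile normalized over all 82 arrays. A pool stood apart from the others of its group in the median level of the members in 2 of the 14 groups. In neuron DR pool 5 lay at 13.83 against 13.94 for the next, and in tubule AL pool 4 lay at 13.56 against 13.64. Results that depend on these pools are given without them. The 95th percentile of the control probes, a mark of background, lay between 6.75 and 9.26 on the neuron DR arrays, the widest range of the 14 groups. The number of pools limits the precision of every value below.

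The members' largest change in any tissue had a median of 0.23 on the log2 scale, against 0.72 for the other 3959 bright transcripts and 0.97 for all transcripts. The steadiest member, FBtr0075884, had its largest change in the gut, 0.060, and the next, FBtr0078705, in muscle, 0.071. At the other end of the list, FBtr0088001 changed by -0.28 in the fat body and FBtr0081965 by -0.28 in the germ line. The choice cuts through a continuous range, because the last 2 members had largest changes of 0.2812 and 0.2816, and the first 2 transcripts left out, FBtr0074283 and FBtr0100335, had 0.2820 and 0.2822. The largest change fell in the neurons for 57 members (48.6% of the other bright transcripts had theirs there) and in the germ line for 30 (21.7%). It fell in the gut for 28 (4.85%), in muscle for 28 (7.86%) and in the fat body for 27 (9.72%). The heart had 22 (4.29%) and the tubule 8 (2.96%). The choice used these changes, so the counts are a description.

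The pools show what such steadiness looks like. In the gut, FBtr0075884 ranged from 14.96 to 15.28 (median 15.10) over the 6 AL pools and from 15.07 to 15.24 (median 15.18) over the 6 DR pools. The foods overlapped, with each DR pool inside the AL range. FBtr0078705 lay between 15.17 and 15.37 (median 15.22) in the 5 AL pools of the neurons, and between 14.69 and 15.35 (median 15.25) in the 6 DR pools. The low DR value was pool 5, which stood apart, and the other 5 lay within the AL range from 15.25 upward. FBtr0088001, near the end of the list, lay between 14.45 and 14.74 (median 14.51) in the fat body on AL food and between 14.22 and 14.34 (median 14.25) on DR food. In the heart its 5 AL values were 13.25, 13.76, 13.78, 13.78 and 13.83, and the 6 DR values ran from 13.914 to 14.002. The foods did not overlap in either tissue, with DR lower in the fat body and higher in the heart. The heart value of 13.25, AL pool 4, stood apart, and without it the change in the heart was 0.16 in place of 0.27.

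**Figure D1:**
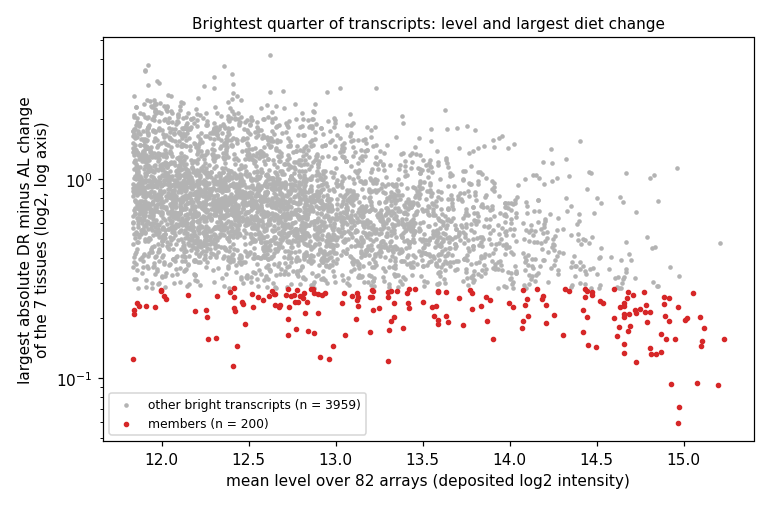
Mean level over the 82 arrays (deposited log2 intensity, horizontal) against the largest absolute DR minus AL change of the 7 tissues (log2, logarithmic vertical axis) for the 4159 bright transcripts. Red points are the 200 members and grey points the other 3959; the members fill the bottom of the cloud, and 80 of them lie above a mean level of 14.

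The members were bright even among bright transcripts. Their mean level ran from 11.84 to 15.23 with a median of 13.56, against 12.60 for the other bright transcripts and 10.10 for all transcripts. Of the 271 transcripts with a mean level above 14, 80 were members, which is 40% of the members, against 4.82% of the other bright transcripts. With the bright transcripts divided by level into 10 classes, the brightest class held 89 members among 416 transcripts and the dimmest held 7 among 416. The median largest change over all transcripts of these classes was 0.42 and 0.91.

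The brightest members had means not far below the brightest probe value of all arrays, 15.96. FBtr0085772 had the highest mean, 15.23, with group means from 14.83 in heart AL to 15.39 in muscle DR, and FBtr0114087 came next with 15.20. Probe values above 15 on the log2 scale made up 14.7% of the members' probe values, 2.29% of those of the other bright transcripts and 0.800% of all. The share in members ran from 2.49% in the heart to 23.8% in the neurons. Deposited values differ in scale between tissues, with a highest probe value of 15.66 in the heart and 15.82 in the neurons. Neither these shares nor the group means of FBtr0085772 are therefore read as differences between tissues. In 68 members no probe passed 15 on any array. In 32 members each of the 8 probes passed it on at least 1 array, which need not be the same array for all 8. When all such probes were left out, 168 members still had a probe. The median of their largest change was then 0.26, against 0.23 before, and the highest was 0.83. With the rule applied again to the transcripts without those probes, 131 of the 200 members were chosen again. The part of the upper end of the scale in the small changes was not tested beyond these values.

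At the dim end of the list lay FBtr0082481 and FBtr0070115, with means of 11.84 each. FBtr0082481 was called for diet in no tissue, and its mean level ran from 11.16 in tubule DR to 12.74 in germ line DR. Deposited values differ in scale between tissues, so no difference between tissues is read from this range. The pools of the foods overlapped for both members in all 7 tissues. In the heart, FBtr0082481 lay between 11.18 and 11.28 (median 11.23) in the 5 AL pools and between 11.20 and 11.54 (median 11.31) in the 6 DR pools.

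The members also varied little between pools of the same group. The choice favours this, since pools that vary more give larger measured changes. Brightness went with it too: among the 10 classes by level, the mean SD was 0.19 in the dimmest and 0.11 in the brightest. The values are therefore a description. The median SD within a group was 0.080 for members, 0.12 for the other bright transcripts and 0.20 for all transcripts. For members it was widest in neuron DR (0.14) and germ line DR (0.13) and narrowest in tubule DR (0.054). Over all transcripts the same groups had 0.36, 0.36 and 0.13. The number carried by a transcript's last probe had a median of 1006.5 in members, 1168 in the other bright transcripts and 1024 in all. Above a mean level of 14 it was 666.5 in members and 608 in the other bright transcripts. The likeness of the last 2 values is a description, since level was part of the choice.

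The changes had small errors, which the choice favours as well. The median SE of a member's change was 0.067, against 0.16 over all transcripts, and the 95% interval of the change lay within 0.5 of 0 in 1395 of the 1400 pairs of member and tissue. These use 1 spread per transcript, shared by all 14 groups. The members' median SD was 0.14 in neuron DR, 0.13 in germ line DR and 0.054 in tubule DR. The intervals are therefore too narrow for the germ line and neurons. In the fit over all transcripts 432 of the 1400 pairs passed limma's test. The smallest change that passed was 0.11 in size, and the largest that did not was 0.26.

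By tissue, 42 members were called in the fat body (37.6% of all transcripts were called there), 81 in the germ line (71% of all), 55 in the gut (35.9%), 49 in the heart (52.2%), 66 in muscle (55.1%), 112 in the neurons (66%) and 27 in the tubule (39.8%). The choice used these contrasts, so nothing is read from the counts beside the shares. In at least 1 tissue 175 members were called (97.2% of all transcripts), and 25 in none (2.82%). A call in 1 tissue was had by 41 members (8.69% of all transcripts), in 2 by 59 (15.5%), in 3 by 39 (24.6%), in 4 by 26 (19.7%), in 5 by 8 (13.3%) and in 6 by 2 (8.75%), and no member was called in all 7 (6.59%). All DR pools lay on one side of all AL pools for 26 members in the fat body (26.8% of all transcripts), 7 in the germ line (16.2%), 32 in the gut (20.8%), 44 in the heart (48%), 25 in muscle (26.3%), 34 in the neurons (50.1%) and 19 in the tubule (32.2%). Without neuron DR pool 5 the neuron calls were 103, and without tubule AL pool 4 the tubule calls were 20. With the arrays of that tissue alone, the calls were 20 in the germ line and 24 in the neurons.

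The small changes leaned one way in some tissues. In the germ line 150 members had a mean below 0 change and 50 above, with a median of -0.092, while the median of the other bright transcripts was -0.32. In the fat body 137 members lay above 0 with a median of 0.050, and in the gut 124, with a median of 0.035. In the heart, muscle, neurons and tubule the medians lay between -0.016 and -0.0044. The directions of the called members depended on the scaling used. Quantile normalization over all arrays kept the larger direction in all 7 tissues, with 20 higher and 5 lower in the fat body and 11 and 80 in the germ line. Centring and cyclic loess changed the split in most tissues. Among called members, 31 were higher and 11 lower in DR in the fat body (20.3% and 17.3% of all transcripts), but 89 and 1 with each array centred on its median and 14 and 38 after cyclic loess. In the germ line they were 11 higher and 70 lower (34.2% and 36.8% of all), 25 and 28 centred, and 68 and 7 after loess. The gut had 36 higher and 19 lower (18.1% and 17.8% of all), 86 and 0 centred, and 11 and 47 after loess. Heart had 21 and 28 (25.1% and 27.1%), and 117 and 0 centred. Muscle had 20 and 46 (27.8% and 27.3%), 93 and 0 centred, and 61 and 40 after loess. Neurons had 49 and 63 (28.4% and 37.6%), and 28 and 73 centred. The tubule had 16 and 11 (20.4% and 19.4%), 36 and 0 centred, and 16 and 28 after loess. Centring moved the median change of all transcripts by between -0.047 in the neurons and 0.21 in the heart, and loess moved it by 0.19 in the neurons. No common direction of the members is therefore stated.

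A single probe of a member could change more than the mean of its 8 probes. Of the 1600 probes, 26 in 24 members changed by at least 1 on the log2 scale in some tissue, which is 1.63%, against 33.5% of the probes of the other bright transcripts and 58.6% of all. The median over the members' probes of the largest change in any tissue was 0.31, against 0.78 and 1.15. The choice used the mean of the same probes, so these values are a description.

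The range between tissues, which the choice did not use, was narrow in many members and wide in some. The range between a member's highest and lowest tissue mean had a median of 0.79, from 0.13 to 3.45, on the quantile scale. On that scale 67 members (33.5%) were at least 2-fold apart (76.7% of all transcripts were), against 112 on the deposited values and 145 with arrays centred on their medians. The median range was 1.43 in the other bright transcripts, of which 72.7% were at least 2-fold apart, and 1.66 in all. No test was run of these differences between sets of transcripts. All 200 members passed limma's moderated F test between the 7 tissues, as did 99.5% of all transcripts. Both foods enter each tissue mean here. Without either of the pools that stood apart the count of members at least 2-fold apart on the quantile scale was again 67.

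The bright end of the list had the narrower ranges between tissues. Members there that kept a probe had wider ranges with the brightest probes left out. Of the 80 members above a mean level of 14, 8 (10.0%) were at least 2-fold apart, with a median range of 0.53. The 191 other bright transcripts above 14 held 86 (45.0%) with a median range of 0.93. Of the 120 members at or below 14, 59 (49.2%) were at least 2-fold apart, against 74.1% of the 3768 other bright transcripts at such levels. With the probes that pass 15 left out, 48 of the 80 bright members kept a probe. Their median range was then 0.91, against 0.56 with all probes, and 22 of them (45.8%) were at least 2-fold apart, against 6 with all probes. In the 120 members at or below 14 the count was 58, against 59. In the 135 other bright transcripts above 14 that kept a probe it was 79 (58.5%), against 59. Leaving probes out also leaves fewer probes per transcript. Whether fewer probes or brightness had a part in the wider ranges was not tested.

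The widest range belonged to FBtr0081277. Its means were 14.27 in the tubule, 13.995 in the gut, 13.72 in the fat body, 12.48 in the heart, 11.48 in the neurons, 11.21 in the germ line and 10.81 in muscle. The lowest of the tubule, gut and fat body values was 13.54, in a fat body DR pool, and the highest in the other 4 tissues was 12.65, in a heart AL pool, so these sets of tissues did not overlap. The tubule lay 1.98 ± 0.047 (SE) above the mean of the other 6 tissues (adjusted p = 3.4e-50 in limma), and muscle lay at -2.05 ± 0.047 (adjusted p = 3.55e-51). In contrast to these differences, its foods overlapped in all 7 tissues. Tubule AL ran from 13.80 to 14.42 and tubule DR from 14.08 to 14.49. Its mean over all arrays and its small diet change put it on the list although its tissues lay 3.45 apart.

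FBtr0078406 had the next widest range, 3.00, and a similar order. It was at 14.29 in the gut, 14.24 in the fat body and 13.87 in the tubule, and at 12.45 in the heart, 11.80 in the neurons, 11.55 in muscle and 11.29 in the germ line. In the gut it was 1.76 ± 0.060 above the other 6 tissues (adjusted p = 3.69e-40 in limma) and in the germ line it was at -1.74 ± 0.060 (adjusted p = 3.92e-40). The lowest pool of the first 3 tissues lay at 13.50, in tubule AL, and the highest of the other 4 at 12.66, in heart AL.

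FBtr0085911 had the narrowest range, 0.13, and all of its 82 values lay between 14.79, in a muscle AL pool, and 15.27, in a germ line DR pool. Its F test gave an adjusted p of 0.0483, just under the threshold. FBtr0070047 followed with a range of 0.15 (adjusted p = 0.00498 in the F test), and its values lay at 14.34 or above. Its lowest value was in neuron DR, where the other 5 pools lay at 14.69 or above. On the deposited values the group means of FBtr0085911 ran from 14.58 in heart DR to 15.35 in fat body DR, and those of FBtr0070047 from 14.32 to 15.06 in the same groups. The narrow ranges were thus seen on the quantile scale and not on the deposited values. Both members lie above a mean level of 14, and whether brightness has a part in their ranges was not tested.

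**Figure D2:**
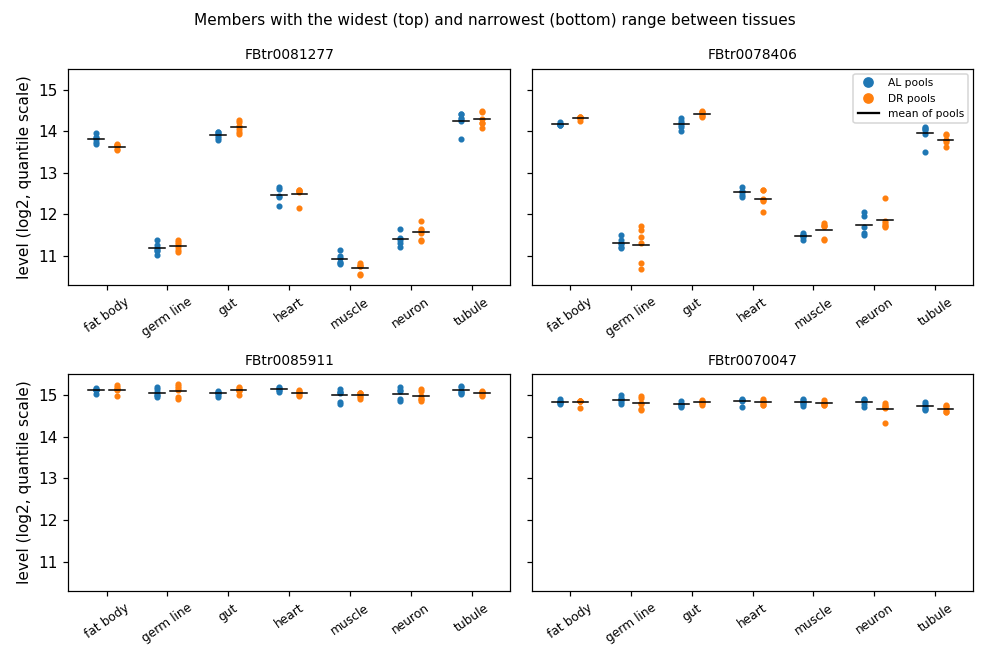
Level of 4 members in each pool (log2, quantile normalized over all arrays, vertical) by tissue, with blue points for AL pools, orange points for DR pools and black lines for means. FBtr0081277 and FBtr0078406 (top) span 3.45 and 3.00 between tissues with the foods side by side in each, and FBtr0085911 and FBtr0070047 (bottom) span 0.13 and 0.15.

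Members that stood out in a single tissue were found for most of the 7. FBtr0089548 was highest in the fat body, with AL pools from 13.35 to 13.71 (median 13.49) and DR pools from 13.26 to 13.47 (median 13.37), and no pool of another tissue passed 12.88. The difference from the other 6 tissues was 1.83 ± 0.083 (adjusted p = 1.59e-32 in limma). FBtr0110812 was lowest in the germ line, with values from 9.62 to 10.54, and no pool of another tissue lay below 10.80. It was at -1.98 ± 0.069 there (adjusted p = 2.24e-39). FBtr0114595 was highest in muscle, from 13.72 to 14.24 (median 14.12) on AL food and from 14.25 to 14.38 (median 14.32) on DR food, with no other pool above 13.17, a difference of 1.58 ± 0.035 (adjusted p = 3.53e-52).

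The gut and the tubule had their own examples. FBtr0100589 lay at 13.47 in the gut and between 14.66 and 15.21 in the other 6 tissues, a difference of -1.50 ± 0.053 (adjusted p = 9.61e-39 in limma). FBtr0090000 lay at 13.60 in the tubule and between 12.13 and 12.62 elsewhere (1.26 ± 0.049, adjusted p = 9.71e-37), and FBtr0087821 lay at 12.18 in the tubule and between 12.75 and 13.82 elsewhere (-1.14 ± 0.043, adjusted p = 1.96e-37). The pools of the named tissue and those of the other tissues did not overlap for FBtr0090000 and FBtr0087821. For FBtr0100589 the nearest value was a neuron DR pool at 13.88, above the highest gut value of 13.69.

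The germ line and muscle were high together in some members. FBtr0070700 was highest in the germ line, 12.94, followed by muscle at 12.53 and neurons at 12.37, and lay near 11 in the fat body (11.08), gut (11.18) and tubule (11.27). Its germ line difference was 1.19 ± 0.051 (adjusted p = 2.78e-34 in limma). FBtr0073047 had the same highest tissue, 13.76, again with muscle next at 13.49. FBtr0075793 was highest in muscle, 13.42, and low in the gut (11.31) and fat body (11.50). For FBtr0070700 the germ line and muscle pools overlapped, since germ line DR ran from 12.41 to 13.22 and muscle AL from 12.58 to 12.69.

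Heart and neurons had the smallest differences. The largest rises in the heart were 0.67 ± 0.033 for FBtr0088059 (adjusted p = 1.1e-29 in limma) and 0.64 ± 0.041 for FBtr0076339 (adjusted p = 1.89e-23), and both were lost on the deposited values, where the differences were 0.0036 and 0.034. The largest falls in the heart were -0.56 for FBtr0076416 and -0.53 for FBtr0076724. In neurons the largest rise was 0.58 ± 0.042, for FBtr0070214 (adjusted p = 5.6e-21). It was not particular to the neurons, since its mean there was 13.41 and its germ line mean 13.57.

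Passing the test against the other 6 tissues was frequent in every tissue, over all transcripts as well as in the list. Members that passed numbered 164 (82%) in the fat body (79.5% of all transcripts passed there) and 171 (85.5%) in the germ line (85.9%). The gut had 149 (74.5%, against 77.1% of all), the heart 136 (68%, against 58.8%) and muscle 168 (84%, against 80.8%). The neurons had 139 (69.5%, against 69.2%) and the tubule 148 (74%, against 81.3%). At least 2-fold differences were had by 9 members higher and 3 lower in the fat body (10.9% and 10.7% of all transcripts), 5 and 14 in the germ line (16.8% and 16%), and 5 and 2 in the gut (8.7% and 7.8%). Muscle had 3 and 6 (11.5% and 11.6%), the neurons 0 and 2 (7.96% and 8.35%), the tubule 7 and 1 (10.9% and 12.1%) and the heart 0 and 0 (4.14% and 2.84%). The germ line was the lowest tissue of 57 members and the highest of 51 (20.2% and 27.4% of all transcripts). The fat body was lowest in 50 and highest in 28 (16.1% and 13.1%), muscle lowest in 44 and highest in 31 (14.96% and 15.93%), and the heart lowest in 5 and highest in 30 (6.11% and 5.99%). The gut was lowest in 12 and highest in 28 (11.5% and 10.9%), the neurons in 7 and 17 (9.26% and 13.96%) and the tubule in 25 and 15 (21.98% and 12.7%).

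**Figure D3:**
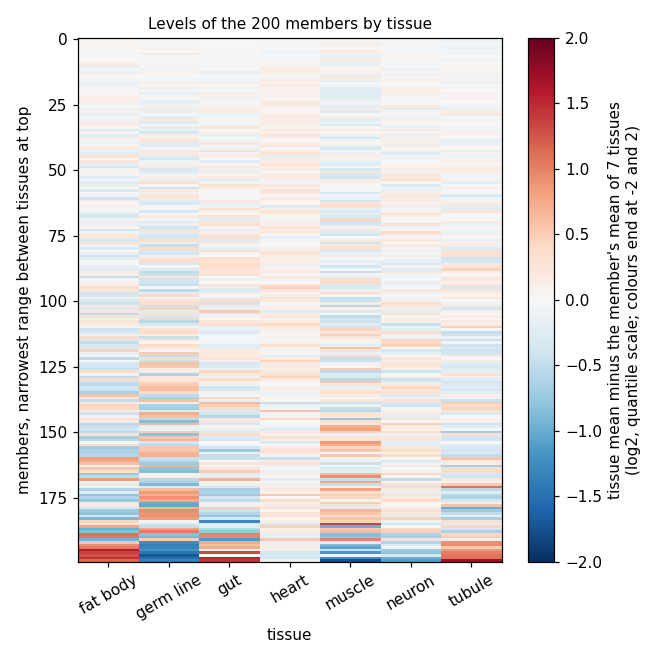
Level of each of the 200 members in the 7 tissues as the tissue mean minus the member's own mean over tissues (log2, quantile scale, colours from -2 in blue to 2 in red), with the narrowest range at the top. The upper part is pale in every tissue, and strong colours gather in the lowest part, which ends with the range of 3.45.

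Which side of the mean a tissue lay on, summed over the members, depended on how the arrays were scaled. In the heart 108 members were higher and 28 lower on the quantile scale (26.7% and 32.2% of all transcripts), 0 and 196 on the deposited values, 24 and 111 with arrays centred on their medians, and 55 and 68 after cyclic loess. In the neurons the counts were 83 higher and 56 lower (36.9% and 32.3% of all), then 184 and 8, 52 and 122, and 75 and 77 in the same order. The fat body had 71 higher and 93 lower (32.4% and 47.1%), 112 and 74 as deposited and 154 and 26 centred. The germ line had 80 and 91 (44.6% and 41.3%), 16 and 173 centred, and 118 and 61 after loess. The gut had 74 and 75 (31.8% and 45.3%), 115 and 63 as deposited, and 136 and 39 centred. The tubule had 75 and 73 (34.3% and 47%), 114 and 56 as deposited, 121 and 52 centred, and 60 and 93 after loess. In muscle, with 75 higher and 93 lower (39.6% and 41.2%), no scaling moved the split by over 10 percentage points. The median difference of all transcripts moved by up to 0.82, in the germ line as deposited. The members named above kept their direction under each scaling, except that those of the heart named as lost came to about 0 on the deposited values.

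A mean of 8 probes can stay level while its probes move apart. The probe gradient, the mean of the 4 probes with higher numbers minus the mean of the 4 with lower numbers, was therefore compared between foods. Whether numbers count from the start or the end of a transcript is not given in the sources used here, so the gradient has no stated direction along the message. It comes from the same arrays and the same contrast of foods as the choice, so its values are given as a description. It changed in 12 members in the fat body (7.56% of the 16634 transcripts with a gradient were called), 67 in the germ line (35.1%), 9 in the gut (5.7%), 36 in the heart (35.5%), 13 in muscle (20.6%), 42 in the neurons (27.8%) and 2 in the tubule (4.74%). In at least 1 tissue it was called in 108 members (69.6% of all), of which 54 were called in 1 tissue, 39 in 2, 11 in 3 and 4 in 4. The split by number of tissues was not counted over all transcripts, so nothing is read from it. The change differed between tissues in limma's F test for 69 members (48.5% of all).

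In the heart 28 of the called gradients were higher in DR and 8 lower (21.4% and 14.1% of all transcripts). The germ line had 30 higher and 37 lower (16.7% and 18.4%), the neurons 20 and 22 (16.4% and 11.4%) and muscle 3 and 10 (10.9% and 9.7%). The fat body had 7 and 5 (4.03% and 3.52%), the gut 5 and 4 (3.28% and 2.42%) and the tubule 1 and 1 (2.67% and 2.07%). Quantile normalization over all arrays changed the split to 1 and 2 in the fat body, 2 and 1 in the gut and 6 and 10 in muscle. With the arrays of each tissue alone, the germ line count was 30 and the neuron count 8. Single pools moved the small counts. Without neuron DR pool 5 the gut count was 19, the tubule count 4, the heart count 48 and the neuron count 35. The gut count was 14 without gut AL pool 2, 4 without gut AL pool 4, 19 without gut DR pool 5 and 5 without gut DR pool 6, and the fat body count was 5 without fat body DR pool 2. Of the 80 members above a mean level of 14, 30 (37.5%) had a gradient call in some tissue, and of the other 120 members 78 (65%) had one. In the other bright transcripts the shares were 62.8% above 14 and 78.6% at or below it.

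FBtr0083101 had the largest rise of the gradient in the heart. In that tissue its 5 AL gradients were -0.12, -0.023, 0.066, 0.080 and 0.24, and the 6 DR gradients were 0.59, 0.62, 0.63, 0.69, 0.77 and 0.84. The foods did not overlap, with a change of 0.65 ± 0.11 (SE), while its mean level in the heart changed by -0.0040 ± 0.088. The gradient was also called higher in DR in the germ line (0.63 ± 0.10), the gut (0.48 ± 0.10) and the fat body (0.37 ± 0.10). Its gradient itself differed between tissues, between a mean of -1.14 on AL food in the fat body and 1.53 on DR food in the germ line.

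FBtr0082481, one of the dimmest members, had the widest fall of the gradient in the heart. It ran from -1.16 to -0.93 (median -1.05) in the AL pools and from -1.90 to -1.45 (median -1.70) in the DR pools. The foods did not overlap, and the change was -0.66 ± 0.12. FBtr0299523 changed by -0.78 ± 0.13 in the neurons, from between -0.91 and -0.67 (median -0.81) on AL food to between -1.98 and -0.95 (median -1.74) on DR food, without overlap. FBtr0088988 changed by -0.76 ± 0.18 in the neurons and by -0.63 ± 0.17 in muscle. Its neuron pools overlapped, with AL from -0.61 to -0.15 and DR from -1.68 to -0.49.

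In the germ line, the member with the largest fall of the gradient was FBtr0089548, which was also the one highest in the fat body. Its AL pools lay between -0.76 and -0.26 (median -0.60) and its DR pools between -2.05 and -0.37 (median -1.35), an overlap, with a change of -0.77 ± 0.14. FBtr0084102 had the largest rise there, 0.66 ± 0.11, from between 1.82 and 2.49 on AL food to between 2.18 and 3.25 on DR food. The DR pools of the germ line were wide for both members.

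**Figure D4:**
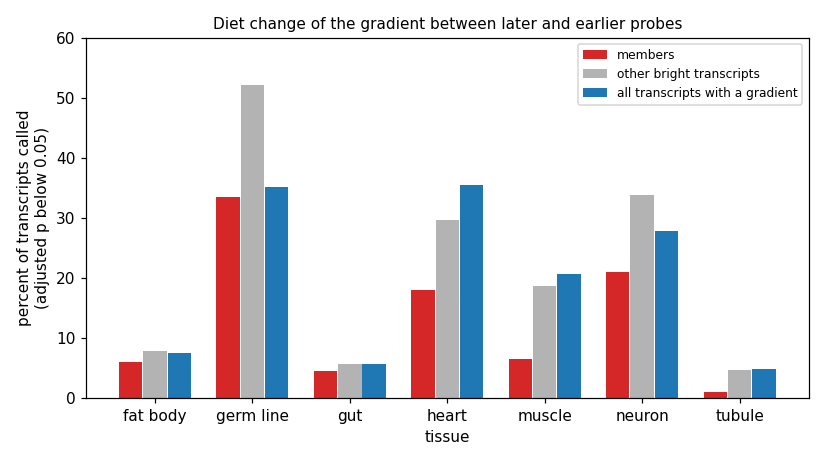
Percent of transcripts whose probe gradient was called between the foods (adjusted p below 0.05 in limma, vertical, from 0) in each of the 7 tissues, for the members (red), the other bright transcripts (grey) and all transcripts with a gradient (blue). In the germ line the bars are 33.5%, 52.2% and 35.1%, and in the tubule 1%, 4.57% and 4.74%.

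The 25 members with no diet call in any tissue are described here without a claim, since the calls rest on the contrasts that chose the list. Their mean levels ran from 11.84 to 15.20 with a median of 13.04, and 8 of them lay above 14. Their largest changes had a median of 0.15 and reached 0.26. Of these 25, 7 were at least 2-fold apart between tissues (33.5% of all members and 76.7% of all transcripts were). A gradient call in some tissue was had by 13 (54% of all members and 69.6% of all transcripts). FBtr0075884, FBtr0078705, FBtr0085911 and FBtr0114087 belonged to the 25, as did the dim FBtr0082481 and FBtr0070115.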

How the data were processed

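Per the labels' protocols, RNA from the FLAG pulldown was amplified with a whole-transcriptome kit (WTA2), labelled with Cy3 and hybridised to single-colour NimbleGen arrays, with pulldown, amplification and labelling randomized over the groups. The deposited table holds linear intensities of 137098 probes on 82 arrays, of which 132998 belong to 16637 transcripts and 4100 are random-sequence controls. That the authors scaled the intensities within each tissue is read from the values. The sources used here do not give the background correction, software, scanner or annotation release, and they name no batch.

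The level of a transcript is the mean of its probes' log2 intensities. The members and lists were chosen with earlier results of these data known. No transcript was filtered out. Contrasts of foods were made on deposited log2 values, and contrasts of tissues after quantile normalization of the 82 arrays together (the tissues are then assumed to share 1 distribution). A model with the 14 groups as its terms was fitted with limma 3.58.1 under R 4.3.3 (version 1.17.8 of data.table), leaving 68 residual degrees of freedom. Tests were two-sided, adjusted by Benjamini and Hochberg over all transcripts, with calls at an adjusted p below 0.05. Levels and differences are log2 and changes are DR minus AL. The F test compared the 7 tissue means, and each tissue was set against the mean of the other 6. The labels call the replicates pools of flies, and p-values measure the spread between pools. Each transcript has 1 such spread, shared by all 14 groups, although some groups varied more than others. The probe gradient was the mean of the 4 later minus the 4 earlier probes by number, fitted like the foods. A probe may also match other transcripts of its gene.

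Named members were the 2 first and 2 last by rank, the 2 just outside, the 2 of highest and lowest mean and widest and narrowest range, and up to 2 higher and 2 lower per tissue in level and in gradient by size. The fits were tested on simulated data. Gene lists and markers fixed for the work could not be looked up, since no member has a gene name, and were not analysed here. Alternatives were other scalings, the median of the probes, array weights, each tissue alone, each food alone, the later or earlier probes alone, filters on level, other cuts of the rule, a replicate block and leaving out each pool. Tables and figures were made with Python 3.11.15, numpy 2.4.6, pandas 2.3.3 and matplotlib 3.10.9.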

Additional observations from a re-analysis of the deposited data

Results flagged for a closer look

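A pool far from the others of its group was looked for in 182 groups of pools, taken from the members named in the rule's ranks, levels and ranges and from the median level of all members, and 18 pools stood apart by Dixon's criterion. Chance alone marks about 1 in 20 such groups. Neuron DR pool 5 was lowest for the median of the 200 members, at 13.83, and for FBtr0078705 (14.69) and FBtr0070047 (14.63), and highest for FBtr0078406 (12.90). Tubule AL pool 4 was lowest for the median of the members (13.56) and for FBtr0070115 (12.20), FBtr0081277 (13.92) and FBtr0078406 (13.62). Heart AL pool 4 was lowest for FBtr0088001 (13.25), FBtr0085772 (14.72) and FBtr0070047 (14.22), and heart AL pool 2 was highest for FBtr0078705 (14.88). Fat body DR pool 5 was lowest for FBtr0078406 (14.46) and FBtr0070047 (14.94), and fat body AL pool 2 for FBtr0085911 (15.25). Single cases were FBtr0088001 in neuron AL pool 4 (14.66), FBtr0082481 in muscle DR pool 6 (11.42) and FBtr0081277 in heart DR pool 6 (11.60), each the lowest of its group. These values are deposited log2 levels.

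Of the 23 members named for their probe gradient, 19 had diet changes of the gradient that differed between the 7 tissues in limma's F test, against 69 of all 200 members and 48.5% of all transcripts. The adjusted p was 5.45e-07 for FBtr0100364, 3.85e-06 for FBtr0086783, 3.88e-06 for FBtr0074941, 8.89e-06 for FBtr0070081, 2.73e-05 for FBtr0084294, 3.22e-05 for FBtr0089548 and 3.73e-05 for FBtr0083101. For FBtr0082047 it was 7.12e-05, for FBtr0085018 8.96e-05, for FBtr0084102 0.000131, for FBtr0299523 0.000874, for FBtr0086533 0.00219, for FBtr0070115 0.00238, for FBtr0077980 0.0054 and for FBtr0082481 0.00555. It was 0.0108 for FBtr0078407, 0.0332 for FBtr0079869, 0.0422 for FBtr0071843 and 0.0491 for FBtr0076416. These members were named by the size of the same changes, so the values are a description. FBtr0100364, for example, had a gradient higher in DR in the tubule (0.30) and germ line (0.19) and lower in muscle (-0.25) and neurons (-0.40).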

How the results depend on the processing

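Without a pool left out, 205 alternatives to the 24 counts were run. Of these, 170 stayed within 1.5 times the reported count and 35 did not, and the causes were not tested except where named. The diet calls became 25 in the fat body with quantile normalization. With centred arrays they were 90 in the fat body, 53 in the germ line, 86 in the gut and 117 in the heart, and with cyclic loess 101 in muscle and 44 in the tubule. Array weights, whose estimation did not fully converge in some fits, gave 82 in the fat body, 155 in the germ line, 93 in the gut, 92 in the heart and 78 in the tubule. Arrays of the tissue alone, with fewer samples and only that tissue's spread between pools, gave 20 in the germ line and 24 in the neurons. The other tissues, each also fitted alone, stayed within 1.5 times: 45 in the fat body, 49 in the gut, 59 in the heart, 48 in muscle and 18 in the tubule. The median of the probes gave 53, 74 and 17 in the germ line, neurons and tubule. Members at least 2-fold apart between tissues numbered 112 on deposited values and 145 centred. Gradient calls were 3 in the fat body and 3 in the gut with quantile normalization, and 22 in the gut, 68 in the heart, 30 in muscle and 6 in the tubule with array weights. With each tissue alone they were 6 in the fat body, 30 in the germ line, 4 in the gut, 6 in muscle, 8 in the neurons and 7 in the tubule. The rule chose again 114 of the 200 members with centred arrays, 111 from the later and 111 from the earlier 4 probes, and 131 with probes passing 15 on the log2 scale left out, an alternative chosen after seeing the data. The last 3 use fewer probes. It chose 134 with the median of the probes, 158 with quantile normalization, 159 by the root mean square of the changes, 188 from the brightest 50% and 167 from the brightest 12.5% of transcripts.

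Leaving out each of the 82 pools gave 32 to 49 diet calls in the fat body, 57 to 95 in the germ line, 44 to 66 in the gut, 35 to 54 in the heart, 50 to 73 in muscle, 90 to 114 in the neurons and 20 to 33 in the tubule. The gradient calls ran from 5 to 17, 49 to 76, 4 to 19, 29 to 48, 9 to 19, 30 to 45 and 2 to 4 in the same order, and those against the other 6 tissues from 161 to 165, 168 to 173, 142 to 151, 126 to 138, 164 to 170, 134 to 144 and 146 to 151. Between 199 and 200 members differed between tissues, 65 to 68 were at least 2-fold apart and 174 to 200 were chosen again, fewest without neuron DR pool 5. In 1961 of 1968 such refits the count stayed within 1.5 times, and the other 7 are given beside the gradient counts. The 54 results for named members kept their direction in all 219 alternatives and all 4428 refits without a pool, and were no longer called in 11 and 12 of them.

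The pools of a tissue share numbers between foods, and of 40 such pairs 21 deviated together with a correlation above 0.1 (from -0.44 to 0.77). Pools with different numbers were not compared in this way. Whether the numbers pair the samples therefore cannot be told, and the main fits treat the pools as unpaired. With the number as a replicate block the diet calls were 43, 81, 56, 48, 67, 107 and 28 in the order above, the gradient calls 14, 66, 10, 38, 14, 42 and 3, those against the other 6 tissues 164, 171, 148, 133, 169, 139 and 148, with 200 differing, 67 at least 2-fold apart and 199 chosen again.

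Brightness limits what these arrays show: 32 members have all probes near the upper end of the scale on some array, where a difference may be understated.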
